A study of Homo sapiens with 8 samples.

Results

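Homologous recombination rebuilds a broken chromosome by copying an intact sister DNA molecule. The Fanconi pathway uses the same machinery to free replication forks that are stopped by crosslinked DNA. Cells engage both mainly during or after DNA replication, and many of the genes are transcribed periodically in the cell cycle. The genes described here are 37 listed members of these processes, with the kinases that signal DNA damage and a pair of mismatch repair genes, chosen by symbol in the annotation of the array. Of the 37, 33 had a probe set assigned to 1 gene and were measured, among 18132 genes in all. BRCA2, RBBP8, FANCA and FANCD2 were not analysed here.

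The members were measured in AGS, an established cell line from a human gastric adenocarcinoma. Of 8 single-colour Affymetrix arrays, 4 carried RNA of AGS cells kept for 72 hours with 3.4 nM podofilox and 4 carried RNA of AGS control cells. Podofilox, also called podophyllotoxin, binds tubulin and blocks microtubule assembly. Whether the controls were given solvent, and whether replicates came from separate cultures, is not said in the labels. The p-values therefore measure only the spread among these arrays, and that spread may be technical. All cells are 1 cell line, and podofilox was given at 1 dose for 1 time. The time at which the control cells were taken is not said in the labels.

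Values are the deposited log2 expression values, a difference is podofilox minus control, and the probe set with the brightest signal stands for its gene. A gene is said to have fallen or risen where limma's two-sided p, adjusted by Benjamini-Hochberg over the 18132 genes, was under 0.05. Across genes, the lowest correlation between arrays was 0.997 within podofilox and 0.998 within control, and the highest between groups was 0.997. The epithelial markers EPCAM, KRT8, KRT18, KRT19 and CLDN4 all had means of at least 12.3 in both groups. CDX2 fell by 0.68 and CLDN4 rose by 0.50. The summed linear signal of all 6 epithelial markers ran from 44096 to 45949 with podofilox and from 41133 to 42923 in control. For 6 of 6 fibroblast markers it ran from 467 to 517 with podofilox and from 568 to 587 in control, of which 1, PDGFRA, fell (8.50 with podofilox, 8.78 in control). For 5 of 6 immune cell markers it ran from 11919.7 to 13687 with podofilox and from 11960 to 13191 in control, with LYZ, which gastric epithelium also makes, as the brightest (13.62 with podofilox, 13.60 in control), and 1, CD68, rose. The endothelial markers (4 of 4) summed to between 190.2 and 216 with podofilox and between 191 and 229 in control, and 1, CDH5, fell. PTPRC, which defines leukocytes, was at 3.49 with podofilox and 3.62 in control, near the lowest values of the arrays, where RMA gives no 0. The 18S ribosomal RNA control probe sets averaged 12.01 to 12.42 on podofilox arrays and 12.59 to 12.92 on control arrays, so they moved with the groups. The part of the markers and of the 18S signal in the results below was not tested.

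With podofilox, 14 of the 33 members fell and 0 rose by limma, against 12.5% of all genes that fell and 8.55% that rose. At an unadjusted p under 0.05, 21 members were lower and 0 higher, against 18.4% and 15% of all genes. With array weights, the alternative that called the most members, 18 fell and 0 rose, among 5275 changed genes. The falls were small. RAD54B, a motor protein that remodels DNA during strand exchange, was 1.43-fold lower, BRCA1 1.31-fold lower, and MRE11 and BLM 1.28-fold lower each. The median difference over the members was -0.17, against 0.0069 over all genes, and 31 of the 33 differences were negative. For 17 members every podofilox array was lower than every control array, against 15.6% of all genes, and for 0 members every one was higher, against 10.6% of all genes. In these bulk samples, fewer cells in a state that transcribes a gene and less RNA per such cell cannot be told apart.

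**Figure D1:**
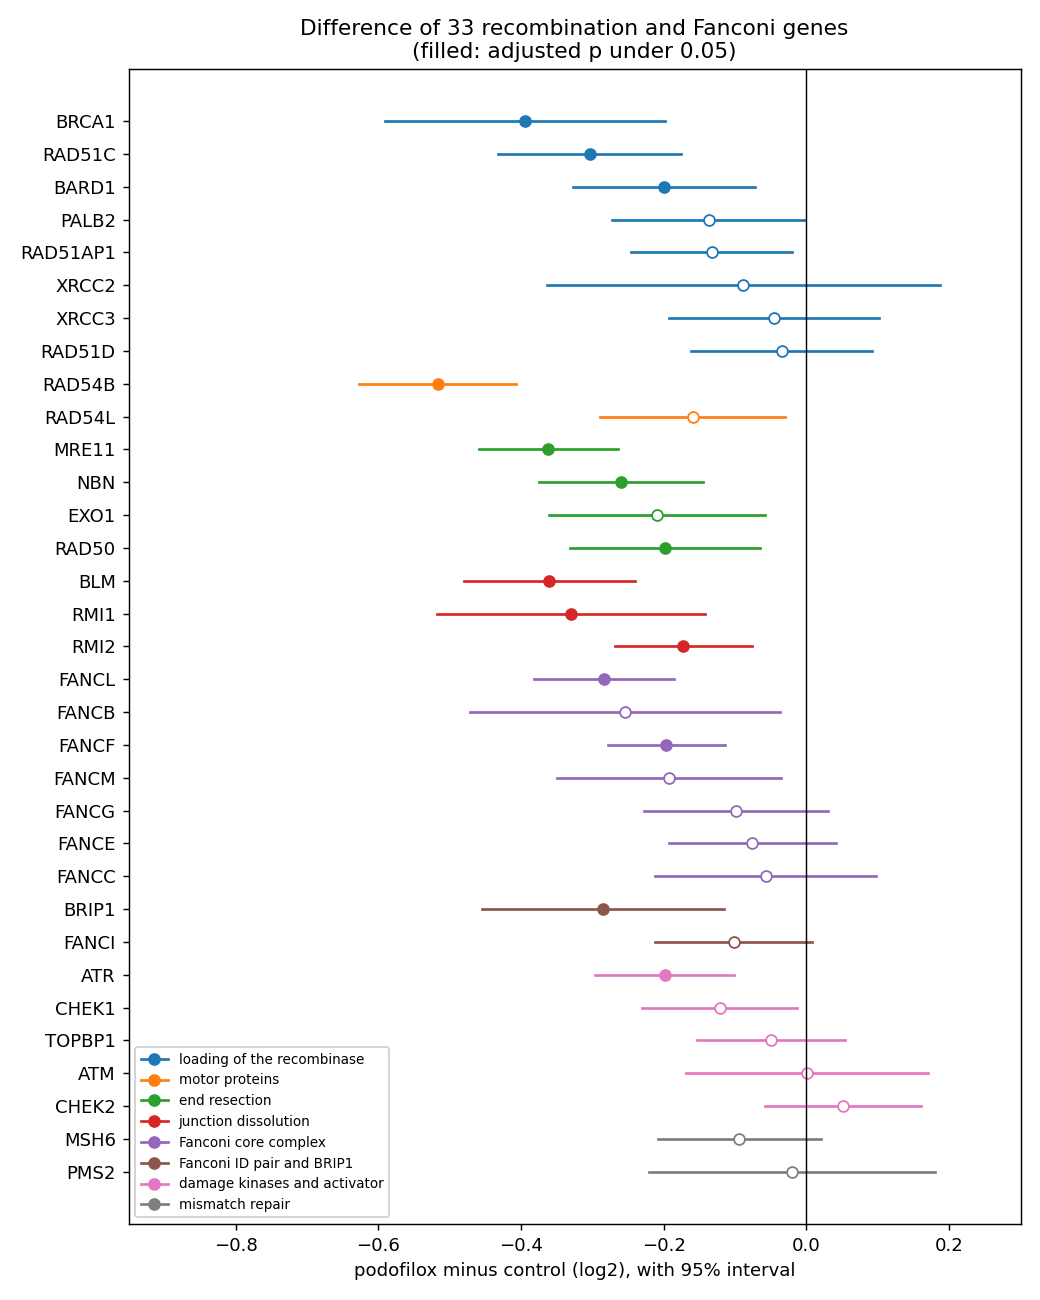
Podofilox minus control on the log2 scale (horizontal axis) for each of the 33 measured members (vertical axis), coloured by role. Points are limma estimates, bars are 95% intervals, and filled points are the 14 members with an adjusted p under 0.05, which all lie left of 0.

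The sequences around the starts of members were also read. The RefSeq promoter table of build GRCh38.p14 gives windows from 250 bases before to 50 bases after a transcription start, and 29 of the 33 members had at least 1 window. The windows of BRCA1, MRE11 and BLM are shown because these are the members with the largest falls among those whose window could be printed. Each reads 5′ to 3′ along the gene's own strand. The window of BRCA1 is chr17:43125315-43125614 on the minus strand, the inner of its 2 annotated windows, a choice made after both had been read. MRE11 has chr11:94493795-94494094 on the minus strand, and BLM has chr15:90717096-90717395 on the plus strand. Capitals mark CCAAT (or ATTGG on the other strand), the letters read by the factor NF-Y, and TTCCCGC (or GCGGGAA), a core of sites read by E2F factors.
BRCA1: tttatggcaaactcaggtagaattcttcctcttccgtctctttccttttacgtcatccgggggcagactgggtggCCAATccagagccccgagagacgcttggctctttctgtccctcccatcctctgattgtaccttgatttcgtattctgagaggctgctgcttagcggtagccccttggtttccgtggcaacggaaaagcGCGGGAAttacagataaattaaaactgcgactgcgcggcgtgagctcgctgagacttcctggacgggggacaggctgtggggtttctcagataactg
MRE11: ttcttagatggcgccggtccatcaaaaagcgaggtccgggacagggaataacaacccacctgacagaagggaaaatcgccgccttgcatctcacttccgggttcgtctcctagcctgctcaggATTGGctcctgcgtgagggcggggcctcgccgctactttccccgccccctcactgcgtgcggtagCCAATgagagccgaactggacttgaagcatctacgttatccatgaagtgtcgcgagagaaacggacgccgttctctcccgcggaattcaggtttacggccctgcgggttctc
BLM: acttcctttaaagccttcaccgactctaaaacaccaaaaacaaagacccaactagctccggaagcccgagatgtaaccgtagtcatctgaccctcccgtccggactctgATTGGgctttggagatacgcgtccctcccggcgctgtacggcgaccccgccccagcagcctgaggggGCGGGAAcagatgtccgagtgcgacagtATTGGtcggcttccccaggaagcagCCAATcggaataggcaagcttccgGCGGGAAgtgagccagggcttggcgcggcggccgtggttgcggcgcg

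In the windows shown, BRCA1 held CCAAT once and TTCCCGC once, and MRE11 held CCAAT at 2 places and no TTCCCGC. BLM held CCAAT at 3 places and TTCCCGC at 2. The outer window of BRCA1, which is not shown, held neither. Counted on both strands over all windows of the members, CCAAT was in 21 of 43 windows (48.8%), against 34.7% of the 20389 windows of genes measured here. TTCCCGC was in 20 of 43 windows (46.5%), against 8.34%. It was added to the search after the BRCA1 window had been read, so its share is a description of these windows. Among genes with a window, TTCCCGC was held by 6 of 11 members that fell and by 9 of 18 that did not pass the test. Of the 14425 measured genes with a window, 1571 held it. The E2F letters TTTCGCGC and TTTGGCGC, fixed before the search, do not contain TTCCCGC. They were in 3 of 43 windows (6.98%), against 1.49%, and these windows belong to EXO1, FANCC and TOPBP1, which did not pass the test. The letters TTTGAA and TTCGAA of the cell cycle homology region, which marks genes of late cell cycle, were in 3 of 43 windows (6.98%), against 13.8%. Windows of 1 gene can overlap, and letters in a window are not a shown binding site.

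Of 4 measured genes of end resection, the trimming of a break that commits it to recombination, 3 fell, against 12.5% of all genes. MRE11, the nuclease of the complex that MRE11, RAD50 and NBN form at broken ends, had 8.42, 8.42, 8.42 and 8.33 on the podofilox arrays, against 8.75, 8.81, 8.78 and 8.71 on the control arrays. The groups do not overlap, and podofilox replicate 4 lies apart as the lowest array. The difference was -0.36 (SE 0.04, limma adjusted p = 0.000381), with -0.36 between arrays numbered 1 or 2, and -0.37 between those numbered 3 or 4. The other probe sets of MRE11 were at -0.29, -0.20, -0.07 and -0.03, the first pair past the test over all probe sets. The one at -0.29 is dim (4.08 with podofilox, 4.36 in control). It is of the _x_at kind, which may also hybridise with other transcripts. The mean of the MRE11 probe sets was -0.19 (limma adjusted p = 0.00582). NBN, which brings the complex to damaged chromatin, had 9.31, 9.24, 9.10 and 9.22 with podofilox, against 9.45, 9.44, 9.52 and 9.51 in control, without overlap and with a difference of -0.26 (SE 0.05, limma adjusted p = 0.0057). It was -0.17 between NBN arrays numbered 1 or 2, -0.35 between those numbered 3 or 4, and -0.17 when its 5 probe sets were averaged (adjusted p = 0.0118). RAD50, the tether of the complex, had 9.40, 9.39, 9.20 and 9.21 with podofilox, against 9.43, 9.48, 9.58 and 9.50 in control. Its podofilox arrays 1 and 2 came close to the control range, and its fall (-0.20, SE 0.06, limma adjusted p = 0.0404) was -0.06 between arrays numbered 1 or 2, and -0.33 between those numbered 3 or 4. RAD50 lost its call without podofilox replicate 3 or 4 or any 1 control array, with differences of -0.16 to -0.22 (adjusted p = 0.0513 to 0.108), although its 3 probe sets each fell when all probe sets were tested, by 0.20, 0.25 and 0.30. EXO1, the nuclease that lengthens the resected tract, had 7.41, 7.36, 7.39 and 7.09 with podofilox, against 7.55, 7.51, 7.51 and 7.52 in control. Its groups do not overlap, but the difference of -0.21 did not pass the test (95% interval -0.36 to -0.06, limma adjusted p = 0.0539). Without podofilox replicate 4, its lowest array, the difference of EXO1 was -0.14 (adjusted p = 0.0655).

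The 3 measured members that take recombination intermediates apart all fell, against 12.5% of all genes. BLM, the helicase of Bloom syndrome, works with RMI1, RMI2 and the topoisomerase TOP3A to untangle joined DNA molecules without exchange. BLM had 7.33, 7.30, 7.46 and 7.27 on podofilox arrays, against 7.68, 7.78, 7.63 and 7.70 on control arrays, without overlap and with a difference of -0.36 (SE 0.05, limma adjusted p = 0.00128). RMI1 had 7.82, 8.13, 8.25 and 8.06 with podofilox, against 8.51, 8.36, 8.39 and 8.32 in control. Podofilox replicate 1 lies far below the rest, and the difference of -0.33 (SE 0.08, limma adjusted p = 0.0197) was -0.46 between arrays numbered 1 or 2, and -0.20 between those numbered 3 or 4. This is an _s_at probe set, a kind that can match several transcripts, and the other probe sets of RMI1 were at -0.18, -0.20 and -0.03. With the mean of its probe sets RMI1 was at -0.19 (adjusted p = 0.0237), and without _x_at and _s_at probe sets at -0.18 (adjusted p = 0.0441). The call of RMI1 ended on leaving out control replicate 1 (-0.29, adjusted p = 0.0557). RMI2 had 9.37, 9.38, 9.34 and 9.41 with podofilox, against 9.55, 9.62, 9.49 and 9.52 in control, without overlap, and fell by 0.17 (SE 0.04, limma adjusted p = 0.0176). TOP3A, the partner outside the list, was at 6.89 with podofilox and 6.87 in control and did not pass the test (difference 0.02, limma adjusted p = 0.849).

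**Figure D2:**
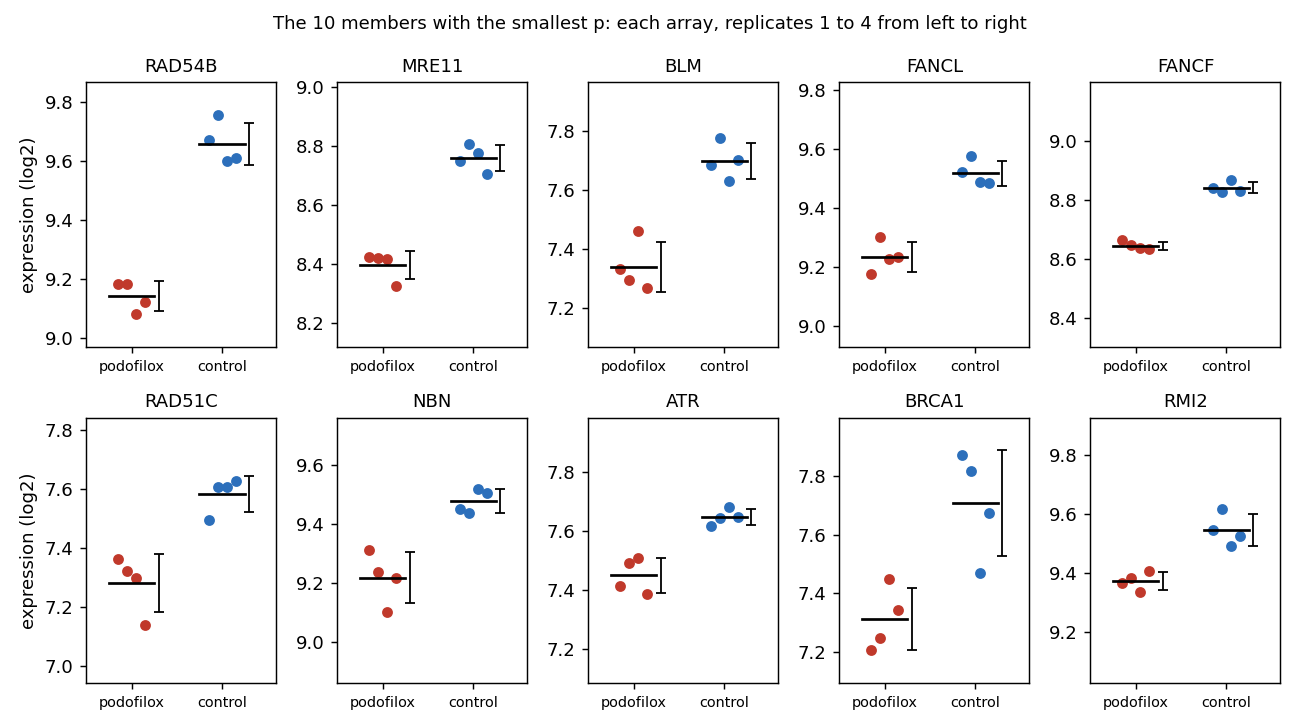
Log2 expression (vertical axes, each spanning 0.9) on the 4 podofilox arrays (red, left) and the 4 control arrays (blue, right) for the 10 members with the smallest p. Bars are group means and error bars are SD (n = 4). The groups do not overlap in any of the 10 panels, which follows largely from choosing them by p on these arrays.

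Of the motor proteins that drive strand exchange, RAD54B had the largest fall of all members. It had 9.18, 9.18, 9.08 and 9.12 on the podofilox arrays, against 9.67, 9.75, 9.60 and 9.61 on the control arrays. Every podofilox array is lower than every control array. The means of 9.14 ± 0.05 with podofilox and 9.66 ± 0.07 in control (SD, n = 4 each) differed by -0.52 (SE 0.05, 95% interval -0.63 to -0.41, limma adjusted p = 0.00013), and the fall was nearly the same within arrays 1 and 2 (-0.53) and within arrays 3 and 4 (-0.50). In the order of all 18132 differences from the lowest, RAD54B came at place 116. Its relative RAD54L had 8.09, 8.06, 7.90 and 7.90 with podofilox, against 8.13, 8.08, 8.21 and 8.17 in control, where podofilox array 1 overlaps the control range. The difference of RAD54L, -0.16, did not pass the test (95% interval -0.29 to -0.03, limma adjusted p = 0.082).

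Of 8 measured genes that load the strand-exchange recombinase onto resected DNA, 3 fell, against 12.5% of all genes. All 8 differences were negative, against 8672 of 18132 over all genes. BRCA1 and BARD1 form a ubiquitin ligase that promotes resection and loading, and both fell. BRCA1 had 7.21, 7.25, 7.45 and 7.35 with podofilox, against 7.87, 7.82, 7.47 and 7.67 in control. Control replicate 3 sits just above the highest podofilox array, and the difference of -0.39 (SE 0.09, limma adjusted p = 0.0106) was -0.61 between arrays numbered 1 or 2, and -0.17 between those numbered 3 or 4, where it did not pass the test alone (adjusted p = 0.233). The probe set read here is an _x_at one, a kind that may also hybridise with other transcripts, and BRCA1 has a partial pseudogene copy nearby. Its other probe sets differed by -0.58, -0.47 and -0.33, all past the test over all probe sets, but of these only the one at -0.33 is not of the _x_at kind, while a dim one did not pass (-0.0019). BARD1 had 8.52, 8.54, 8.38 and 8.36 with podofilox, against 8.64, 8.73, 8.57 and 8.66 in control, again without overlap. Its difference of -0.20 (SE 0.06, limma adjusted p = 0.0335) lost its call without podofilox replicate 3 or 4 or control replicate 1, 2 or 4, with -0.17 to -0.20 (adjusted p = 0.0642 to 0.0926). PALB2, which bridges BRCA1 to the loader, had 8.49, 8.49, 8.30 and 8.40 with podofilox, against 8.46, 8.50, 8.64 and 8.62 in control. It did not pass the test (-0.14, limma adjusted p = 0.144), with 0.0078 between arrays numbered 1 or 2, and -0.28 between those numbered 3 or 4.

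Among the relatives of the recombinase, which help it form filaments, RAD51C fell and the others did not pass the test. RAD51C had 7.36, 7.32, 7.30 and 7.14 on podofilox arrays, against 7.49, 7.61, 7.61 and 7.63 on control arrays, without overlap and with a difference of -0.30 (SE 0.06, limma adjusted p = 0.00448). It was -0.21 within arrays 1 and 2 and -0.40 in arrays 3 and 4. A further probe set of RAD51C fell by 0.24, its others were at -0.04 and 0.10, and with the mean of its probe sets the call ended (-0.12, adjusted p = 0.208). RAD51D (-0.03, 95% interval -0.16 to 0.09), XRCC2 (-0.09, 95% interval -0.36 to 0.19) and XRCC3 (-0.05, 95% interval -0.19 to 0.10) act in the same complexes, and their groups overlap. XRCC2 was the most scattered of these, with an SD of 0.19 with podofilox and 0.24 in control (n = 4 each). RAD51AP1, which stimulates strand pairing, had 8.57, 8.55, 8.54 and 8.48 with podofilox, against 8.62, 8.77, 8.58 and 8.70 in control. Its groups do not overlap, yet its difference of -0.13 did not pass the test (limma adjusted p = 0.0949).

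The Fanconi core complex, a ubiquitin ligase that marks crosslinked DNA for repair, had 2 of 7 measured genes lower (28.6%). Of all genes 12.5% fell, and of genes above the median signal 21.5%, so this share is not far from the latter. FANCL, its catalytic subunit, had 9.18, 9.30, 9.23 and 9.23 with podofilox, against 9.52, 9.58, 9.49 and 9.48 in control, without overlap and with a difference of -0.28 (SE 0.04, limma adjusted p = 0.00161). FANCF, an adaptor of the complex, had 8.66, 8.65, 8.64 and 8.63 with podofilox, against 8.84, 8.83, 8.87 and 8.83 in control, without overlap. The fall of FANCF was small (-0.20, SE 0.04, limma adjusted p = 0.00441), and its arrays were tight, with an SD of 0.014 with podofilox and 0.019 in control (n = 4 each). A further probe set of FANCF, at -0.26, passed the test over all probe sets, and an _s_at one, at -0.01, did not. FANCB, the scaffold beside FANCL, had 5.78, 5.73, 5.85 and 5.99 with podofilox, against 6.24, 5.83, 6.27 and 6.03 in control, so the groups overlap, and its difference of -0.25 did not pass the test (95% interval -0.47 to -0.04, limma adjusted p = 0.0955). FANCM, the translocase that recruits the complex, differed by -0.19 (95% interval -0.35 to -0.04) and did not pass either. FANCG (-0.10), FANCE (-0.08) and FANCC (-0.06) had intervals that span 0.

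Downstream of the core, FANCI, which is clamped on DNA together with its partner once both carry ubiquitin, had 8.995, 9.16, 9.13 and 9.12 with podofilox, against 9.17, 9.27, 9.16 and 9.22 in control. Its difference of -0.10 did not pass the test (95% interval -0.21 to 0.01), although 1 of its other probe sets fell by 0.26 and the mean of its probe sets passed (-0.15, adjusted p = 0.0207). BRIP1, a helicase that binds BRCA1, had 4.37, 4.51, 4.64 and 4.46 with podofilox, against 4.74, 4.68, 4.98 and 4.73 in control, just without overlap. It fell by 0.29 (SE 0.08, limma adjusted p = 0.0239) on a dim probe set, and lost its call without podofilox replicate 1, 2 or 4, with -0.24, -0.29 and -0.28 (adjusted p = 0.0526 to 0.0608). A further probe set of BRIP1 was at -0.08, and the mean of both was -0.18 (adjusted p = 0.0176).

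Of the damage kinases, ATR fell and the others did not pass the test on their brightest probe sets. ATR, which answers stalled replication forks, had 7.41, 7.49, 7.51 and 7.39 on podofilox arrays, against 7.62, 7.64, 7.68 and 7.65 on control arrays. The groups do not overlap, and ATR differed by -0.20 (SE 0.04, limma adjusted p = 0.00978). CHEK1, the kinase that ATR activates, had 9.08, 9.08, 8.92 and 8.96 with podofilox, against 9.15, 9.12, 9.15 and 9.11 in control, without overlap but short of the test (-0.12, limma adjusted p = 0.110). TOPBP1, the activator of ATR, differed by -0.05 (95% interval -0.15 to 0.05). ATM, which answers double-strand breaks, had 6.99, 7.19, 7.31 and 7.14 with podofilox, against 7.33, 7.10, 7.09 and 7.13 in control, and its difference was 0.00058 (95% interval -0.17 to 0.17). CHEK2, the kinase that ATM activates, differed by 0.05 (95% interval -0.06 to 0.16).

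Neither measured mismatch repair gene passed the test. MSH6, which helps recognise mispaired bases, had 9.80, 9.90, 9.99 and 9.81 with podofilox, against 9.97, 10.02, 9.93 and 9.95 in control, with overlapping groups and a difference of -0.09 (95% interval -0.21 to 0.02). PMS2, a subunit of the nuclease that acts after recognition, had 4.28, 4.18, 4.20 and 3.83 with podofilox, against 4.19, 4.18, 4.03 and 4.17 in control, and its difference was -0.02 (95% interval -0.22 to 0.18). The PMS2 probe set is dim and of the _x_at kind, and the gene has near-identical pseudogene copies, so its level is uncertain.

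Unlike its brightest probe set, which did not pass the test, a further probe set of ATM rose. It had 6.21, 6.32, 6.15 and 6.24 on podofilox arrays, against 5.41, 5.79, 5.40 and 5.59 on control arrays, with every podofilox array above every control array. Its difference of 0.68 (SE 0.08, limma adjusted p = 0.000492 over all 44988 single-gene probe sets) is larger in size than that of any representative probe set of the members. The remaining probe sets of ATM were at 0.03, -0.16 and -0.0010 and did not pass. Over all 86 probe sets of the members, 28 fell and 1, that of ATM, rose, against 10.2% and 7.83% of all single-gene probe sets. Of the 53 that do not represent their gene, 14 fell. At least 1 probe set fell in 15 members, which are the 14 named above and FANCI, against 15.6% of all genes. This count grows with the number of probe sets, and it was 10 of the 21 members with several probe sets, against 19.5% of such genes, and 5 of the 12 members with 1, against 8.53%.

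**Figure D3:**
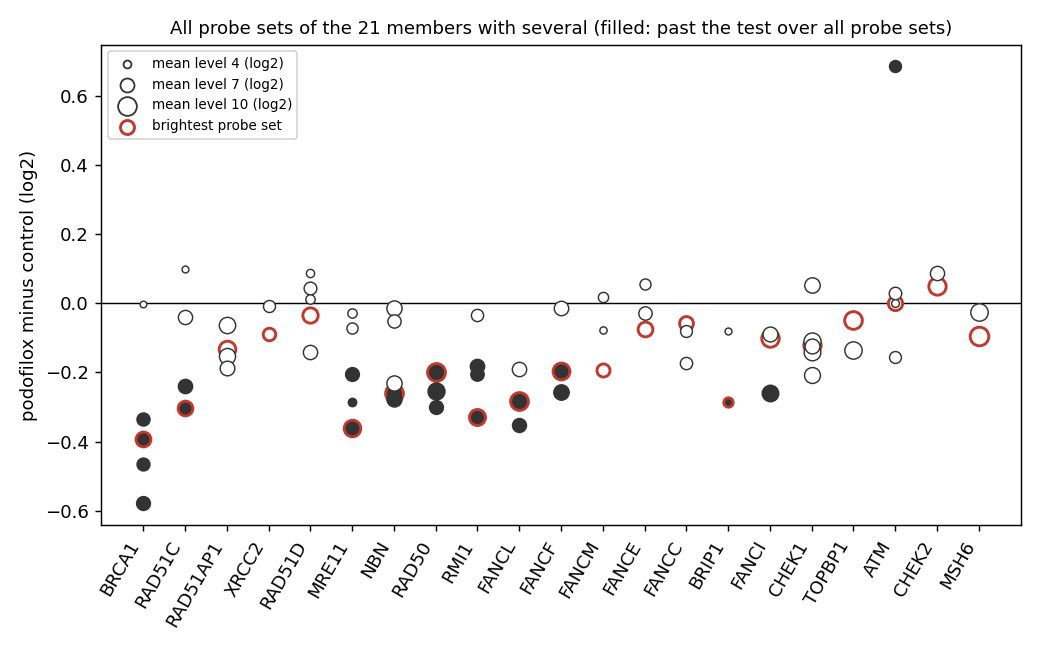
Podofilox minus control on the log2 scale (vertical axis) for every probe set of the 21 members that have several (horizontal axis). Symbol size grows with the mean level, red rims mark the brightest probe set, and filled symbols passed the test over all probe sets. The single filled symbol above 0 is a probe set of ATM.

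Members were also counted by the brightness of their probe sets. Of 26 members above the median signal of all genes, 13 fell, against 21.5% of all such genes. Of 7 members at or below it, 1 fell, against 3.46% of such genes. Differences were also taken within pairs of replicate numbers. Within arrays 1 and 2, 28 of 33 differences were negative, and within arrays 3 and 4, 30 of 33. Each of the 14 members that fell was negative in both, but they were chosen for a fall over these same arrays, so this adds no separate support. The share of all genes that was negative within each pair was not taken. Among members that fell, the difference was over 1.5 times as large within arrays 1 and 2 for BRCA1, RMI1 and RMI2, and within arrays 3 and 4 for RAD50, NBN, RAD51C and BARD1. The 18S signal of podofilox arrays 1 and 2 was 12.01 and 12.06, and that of control arrays 1 and 2 was 12.86 and 12.92, so these arrays lay farther apart in it than arrays 3 and 4 did (12.42 and 12.41 with podofilox, 12.59 and 12.59 in control). The part of that signal in the differences was not tested, the labels name no batch, and whether the pairs of arrays differ was not tested.

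**Figure D4:**
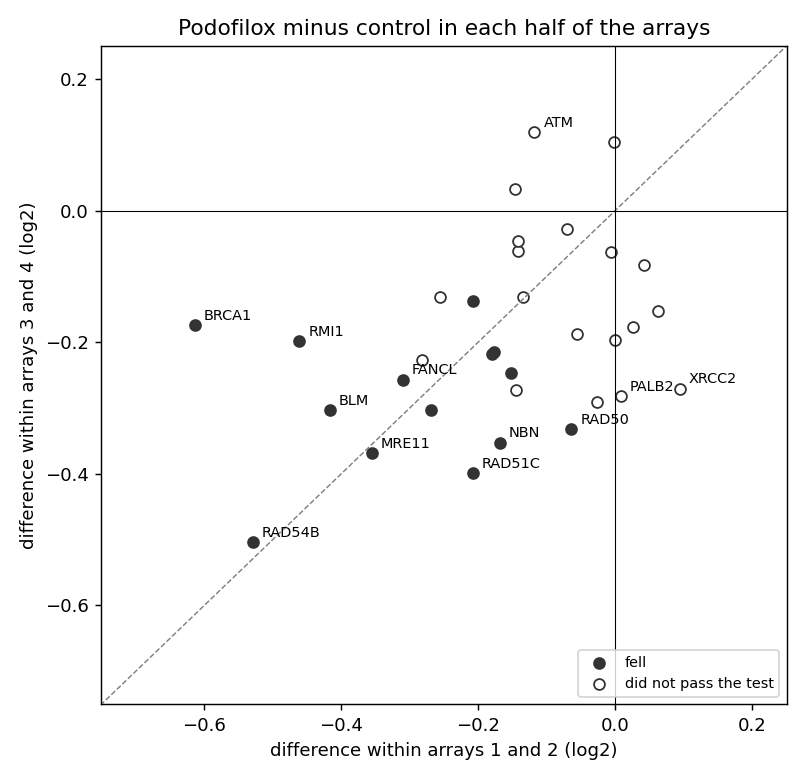
Podofilox minus control on the log2 scale within arrays numbered 3 and 4 (vertical axis) against that within arrays 1 and 2 (horizontal axis) for the 33 members. Filled points are the 14 members that fell, and the dashed line marks equal differences. RAD54B and MRE11 lie near the line, and BRCA1 lies far from it.

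Other genes of the same processes were taken from lists drawn up by function, and their counts stand beside the 12.5% of all genes that fell and the 8.55% that rose. Most genes of these lists were above the median signal of all genes, and among all such genes 21.5% fell and 12.4% rose. Of 25 measured other recombination genes, 7 fell (28%) and 2 rose (8%), with a median difference of -0.09. GEN1, a nuclease that cuts joined molecules, fell by 0.53 (SE 0.09, limma adjusted p = 0.00253), BRCC3, a deubiquitinase that acts with BRCA1, by 0.33, and the Werner syndrome helicase WRN by 0.27. SFR1, which stimulates strand exchange, rose by 0.34 (SE 0.04, limma adjusted p = 0.00054). Of 19 other Fanconi and crosslink repair genes, 4 fell (21.1%) and 1 rose (5.26%), with a median of -0.04. Neither share was above that of genes above the median signal. UHRF1, which binds crosslinked and newly replicated DNA, fell by 0.52, FAAP100, the partner of FANCB and FANCL, by 0.26, and USP1, which removes ubiquitin from the clamp, by 0.17, while the nuclease subunit ERCC1 rose by 0.18.

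Of 14 genes of end joining, the competing repair route, and of the choice between routes, 4 fell (28.6%), with a median of -0.13. XRCC6 and XRCC5, the Ku proteins that cap broken ends, fell by 0.27 and 0.26, RIF1, which restrains resection, by 0.22, and PAXIP1 by 0.31. Of 14 genes of damage signalling, 5 fell (35.7%) and 1 rose (7.14%), with a median of -0.05. The shares that rose in these lists were not above that of all genes. TIMELESS, TIPIN and CLSPN, which tie ATR to the replication fork, fell by 0.51, 0.50 and 0.44, while WEE1, a kinase that delays mitosis, rose by 0.39. The lists share a cell line and arrays with the members, and no test of a difference between lists was made.

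For comparison, 26 of 29 DNA replication genes fell, with a median of -0.27, whereas among 21 G2 and mitosis genes 4 were called lower and 1 higher, with a median of -0.0046. By share of measured genes, the recombination and Fanconi members, at 42.4%, lay between the replication genes, at 89.7%, and the mitosis genes, at 19.0%. The share of mitosis genes was not above the 21.5% of genes above the median signal that fell.

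**Figure D5:**
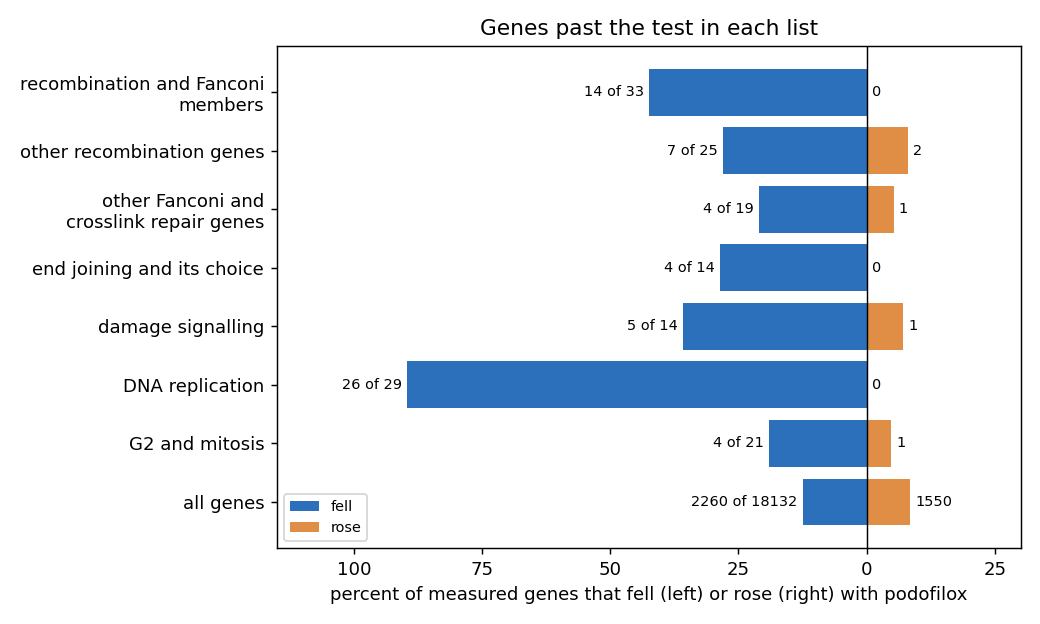
Percent of measured genes that fell (blue, to the left) or rose (orange, to the right) with podofilox, for the members, 6 other gene lists and all genes. Numbers beside the bars are counts of genes. The members (14 of 33) lie between DNA replication (26 of 29) and G2 and mitosis (4 of 21).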

How the data were processed

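Per the submitters' processing notes, the authors made the deposited log2 expression values with RMA (background correction, normalization between arrays, summary per probe set). The RMA software, its version and its options were not given in the sources used here. That the scale is log2 follows from RMA and from the range of 2.64 to 15.0. Of 49395 probe sets, 44988 had 1 gene in the platform annotation, and symbols were updated through Entrez identifiers in RefSeq (44961 matched). For each gene the probe set of highest average signal on the 8 arrays was kept. The comparison used lmFit and eBayes of limma 3.58.1 (R 4.3.3) with group as the only term and no filter, and was tested on simulated data. Figures used matplotlib 3.10.9 in Python 3.11.15. The number of arrays limits the precision.

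The members and lists were chosen with earlier results of these data known. By the naming rule, values per array are given for the 10 members with the smallest p and for the 2 members of each role with the largest differences; others were added after their values were seen. Up to 4 genes of each other list are named by smallest p. TOP3A and the probe set of ATM were chosen after their values were seen. Alternatives changed the filter, normalization, variance model, weights, block, test, probe sets and arrays used.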

Additional observations from a re-analysis of the deposited data

Results flagged for a closer look

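In 6 of 66 sets of 4 arrays (33 members in each group) a single array stood apart from the other 3 by Dixon's criterion, which chance alone meets in about 1 of 20. With podofilox, replicate 4 was low for EXO1 (7.09, the others 7.36 to 7.41) and for MRE11 (8.33, the others 8.42). In control, replicate 1 was low for RAD51C (7.49, the others 7.61 to 7.63) and high for ATM (7.33, the others 7.09 to 7.13). Control replicate 3 was high for FANCG (7.97, the others 7.83 to 7.85) and low for PMS2 (4.03, the others 4.17 to 4.19). Leaving out podofilox replicate 4 kept the call of MRE11 (-0.34, limma adjusted p = 0.0018), and leaving out control replicate 1 kept that of RAD51C (-0.33, limma adjusted p = 0.00627). EXO1 without podofilox replicate 4 was at -0.14, against -0.21 with all arrays. Without control replicate 3, FANCG was at -0.07, against -0.10, and PMS2 at -0.06, against -0.02. Without control replicate 1, ATM was at 0.06, against 0.00058.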

How the results depend on the processing

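Over 21 alternatives, including a plain t-test in place of limma, the number of members that fell ran from 4 to 18, against 14. The number that rose stayed at 0. Each gene was counted by 1 value, so the ATM probe set that rose was not counted by itself. Leaving out each array in turn gave 11 to 15 falls, 0 to 0 rises and 2706 to 3590 changed genes, against 3810. The count moved by over 1.5 times with 2 arrays against 2, which holds fewer samples. Arrays numbered 1 and 2 alone gave 4 falls among 1010 changed genes, and arrays 3 and 4 alone 8 among 2300. Testing all probe sets gave 8112 changed probe sets, since more features were tested. RAD54B and MRE11 kept their call under all alternatives, and 8 of the 14 did so outside the fits of 2 against 2. All 293 alternative values of the 14 were negative, but the 14 were chosen for falls on these same arrays. Several alternatives also leave the difference itself unchanged, so this count adds no separate support. The calls most often lost were those of RAD50 (10 alternatives), BARD1 (8) and BRIP1 (6). RAD54L and EXO1 gained a call under 5 alternatives each. Deviations of same-numbered arrays correlated at -0.24 to 0.09, and those of differently numbered arrays at -0.15 to 0.24. Pairing by replicate number was not visible in this, but 4 arrays per group cannot exclude it. With the replicate block, 11 members fell, 0 rose and 2741 genes changed. Dim probe sets limit BRIP1, PMS2 and FANCB.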
